A study of Clonorchis sinensis with 4 samples.

Results

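The LTR/Gypsy locus on scaffold DF142881.1 (+ strand, scaffold name as deposited) is a repeat of 1220 bases to which the authors assigned 937 of the 5927 piRNA entries in their tables of the liver fluke Clonorchis sinensis. Its members were chosen by the locus named in the annotation column, and the locus itself was selected on measured values, since it holds the most entries and ranks first or second by tags in each stage. These ranks are therefore descriptions. The study sequenced small RNA from eggs, from metacercariae, which are larvae encysted in fish, from adult worms and from extracellular vesicles that adults shed. Each group was 1 library of Trizol-extracted total RNA, and the labels give no strain, host, number of worms or age. No group has a replicate, so no test between groups was possible and every difference below is between single libraries.

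PIWI-interacting RNAs (piRNAs) are small RNAs that guide PIWI-clade Argonaute proteins to transposon transcripts, and in many animals they keep transposons silent in the germ line. Gypsy elements are retrotransposons with long terminal repeats (LTRs) that copy themselves through an RNA intermediate with their own reverse transcriptase and integrase, and in Drosophila ovaries they are a classic piRNA target. Schistosomes, which are related flukes, have been described as lacking a PIWI gene of the canonical clade, so the class name piRNA is used here as the authors' annotation. The files give neither the sequence nor the length of an entry, and the class and the Gypsy name could not be checked against either. Whether an entry also matches other Gypsy copies in the genome is likewise not given in the sources used here. The strand printed in the annotation column is that of the locus. Each entry is named under 1 locus in these tables, and DF142881.1 carries no second piRNA locus.

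The egg library held 20541335 annotated tags, the metacercaria library 20490790 and the adult library 19404746, of which 98662, 126386 and 177879 were piRNA tags in the same order. The vesicle library held 2361216 annotated tags and 5977 piRNA tags. piRNAs thus made up 0.253% of annotated tags in the vesicle library and, among the stages, 0.480% in eggs, 0.617% in metacercariae and 0.917% in adults. Entries are listed from 10 tags upward in every table, so an unlisted entry holds at most 9. The totals and shares count listed entries alone. In annotated RPM 10 tags are 4.24 in vesicles and 0.487 to 0.515 in the stages, so the vesicle share is not directly comparable with the others. 2 scales are used, tags per 1000000 piRNA tags (piRNA RPM) and tags per 1000000 annotated tags (annotated RPM), and they can differ in direction, since the piRNA total differs between libraries. Intervals are exact at 95%. They cover counting error alone and treat each tag as an independent draw, which tags without molecular identifiers need not be.

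The locus carried its largest share of piRNA tags in metacercariae. Its tags numbered 14002 in eggs, 25161 in metacercariae and 17903 in adults. They were 14.2% of piRNA tags in eggs (95% interval 14.0 to 14.4), 19.9% in metacercariae (19.7 to 20.1) and 10.1% in adults (9.93 to 10.2). By tags it was therefore the most abundant of 143 piRNA loci in metacercariae and the second of 135 in eggs and of 161 in adults. In annotated RPM it stood at 682 in eggs (670 to 693), 1228 in metacercariae (1213 to 1243) and 923 in adults (909 to 936). Metacercariae were highest on both scales, while eggs and adults changed places.

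Set against each other, the metacercaria library had 1.40 times the egg level in piRNA RPM (1.37 to 1.43) and 1.80 times in annotated RPM (1.76 to 1.84). The adult library had 0.506 times the metacercaria level in piRNA RPM (0.496 to 0.515) and 0.751 times in annotated RPM (0.737 to 0.766). For adults over eggs the ratio was 0.709 in piRNA RPM (0.694 to 0.725) and 1.35 in annotated RPM (1.32 to 1.38). The last comparison thus turned with the scale, and all piRNA tags together were 1.91 times as frequent among annotated tags in adults as in eggs.

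The pair of Gypsy loci closest to it in number of entries had another order of stages. The locus on DF143974.1 (+ strand, 648 entries) was lowest in metacercariae on both scales, with 151173, 96767 and 128587 piRNA RPM in eggs, metacercariae and adults, against 141919, 199081 and 100647 for the DF142881.1 locus. Its adult over metacercaria ratio was 1.33 (1.30 to 1.36) where that of DF142881.1 was 0.506. The locus on DF143043.1 (- strand, 483 entries) had 69530, 56960 and 83770 piRNA RPM in the same stages and an adult over metacercaria ratio of 1.47 (1.43 to 1.51). Over the 19 loci with at least 1000 tags in every stage, adult over metacercaria ratios ran from 0.506 to 1.83 with a median of 1.16, and the value of DF142881.1 was the lowest. Its metacercaria over egg ratio of 1.40 was the third highest of the same 19 loci (0.509 to 2.68, median 0.904). Peaking in metacercariae on a single scale was not particular to the locus. Of the 19 loci 3 were highest in metacercariae in piRNA RPM, against 8 highest in adults and 8 in eggs. In annotated RPM 3 were highest in metacercariae. Only DF142881.1 was in both of these sets of 3. The locus on DF143219.1 (+ strand, 88 entries) had the same order of stages as DF142881.1 in piRNA RPM alone. It had 11869, 12319 and 10962 piRNA RPM in eggs, metacercariae and adults. Its tags numbered 1171, 1557 and 1950 in the same stages, and in annotated RPM it was highest in adults. Of the 135 loci of any size listed in both adults and metacercariae, 18 had a lower adult over metacercaria ratio than DF142881.1. Among them, a locus of 135 entries on DF142978.1 (- strand) had a ratio of 0.468. It held 913 tags in eggs, 2740 tags in metacercariae and 1805 tags in adults, and was highest in metacercariae on both scales. DF143219.1 and DF142978.1 were singled out after their values were seen. With 1 library per stage these differences between loci have no test.

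**Figure D1:**
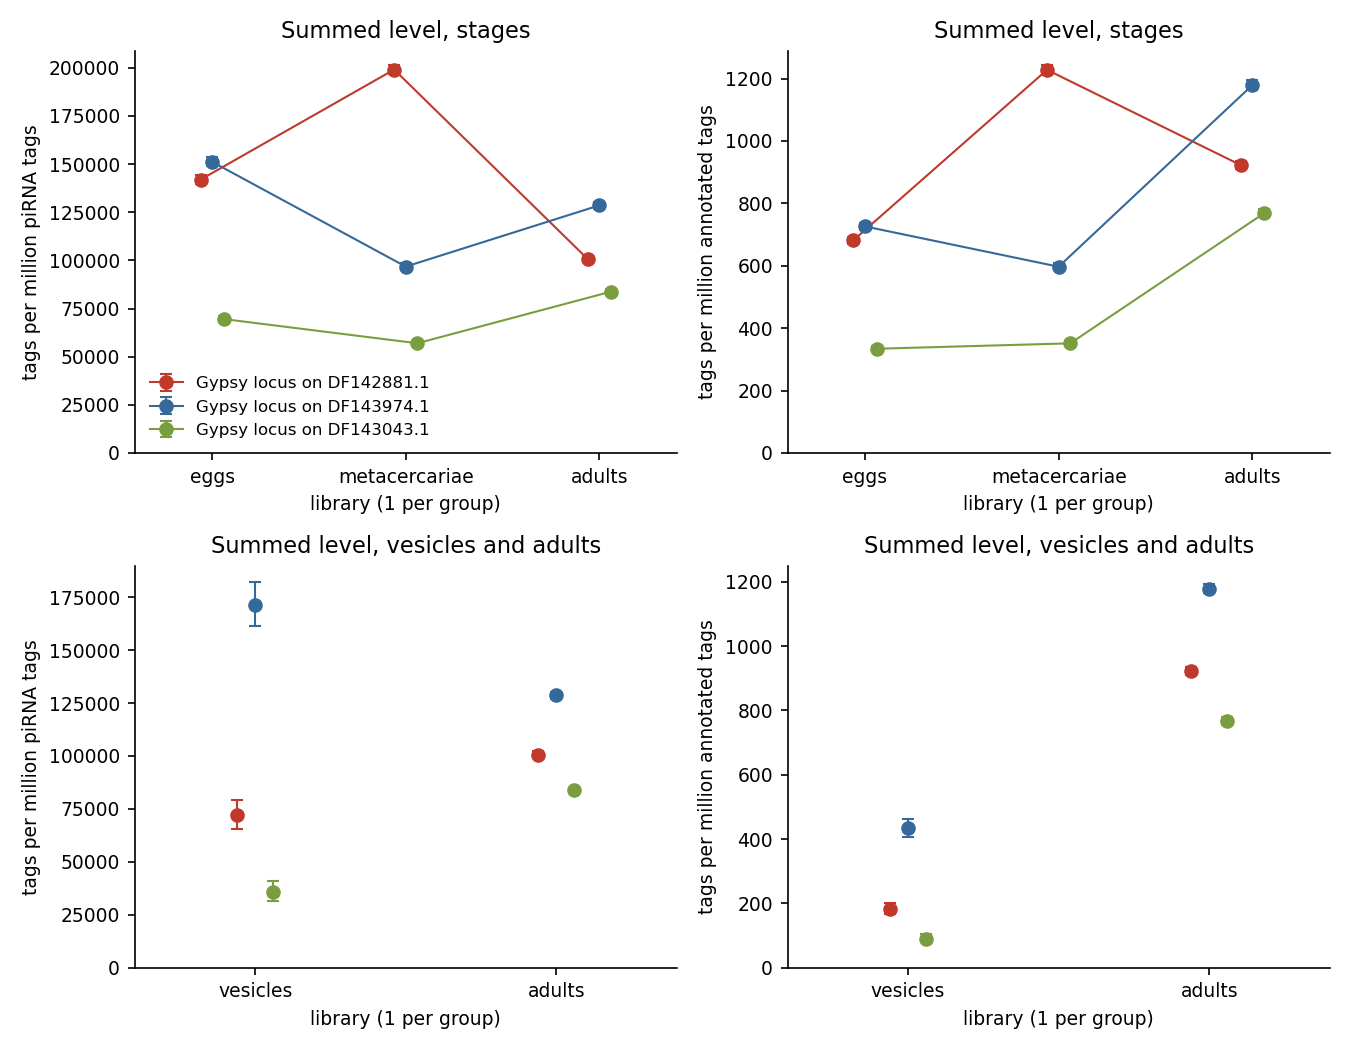
Summed level of the Gypsy loci on DF142881.1, DF143974.1 and DF143043.1 in eggs, metacercariae and adults (top) and in vesicles and adults (bottom), in piRNA RPM (left) and annotated RPM (right). Points are single libraries and bars are exact 95% counting intervals. The DF142881.1 locus peaks in metacercariae on both scales (199081 piRNA RPM, 1228 annotated RPM), the stage in which DF143974.1 is lowest.

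Many entries share the locus. Its 937 entries over 1220 bases amount to 768 entries per kb, the highest density of the 176 loci listed in the stages. The density was 243 per kb for DF143974.1 and 364 per kb for DF143043.1. In number of entries, the median over all loci was 5 per locus. Eggs listed 498 of the entries, metacercariae 695 and adults 604, which were 15.6%, 18.0% and 13.2% of the piRNA entries of each stage. In annotated RPM the listing minimum of 10 tags was nearly equal in the stages, at 0.487, 0.488 and 0.515. In piRNA RPM it was 101 in eggs, 79.1 in metacercariae and 56.2 in adults. Counting only entries at or above 101 piRNA RPM left 498 in eggs, 572 in metacercariae and 316 in adults, so metacercariae kept the most entries and adults fell below eggs. That level takes more tags in adults, whose piRNA total is larger. The same count over all piRNA entries was not made, so this order is not shown to be particular to the locus.

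Most entries were rare. The median tag count per entry was 18.5 in eggs, 22 in metacercariae and 19 in adults, and 263, 297 and 310 entries in that order held 10 to 19 tags. At the listing minimum itself, 48 entries in eggs, 48 in metacercariae and 54 in adults held exactly 10 tags. Eggs had 10 entries with at least 100 tags, metacercariae 40 and adults 15. The 10 most abundant entries carried 14.6% of the locus tags in eggs (14.1 to 15.2), 10.9% in metacercariae (10.5 to 11.3) and 13.1% in adults (12.6 to 13.6). It took 98 entries in eggs, 127 in metacercariae and 119 in adults to reach 50% of the tags. The inverse Simpson number, which is the count of equally abundant entries that would give the same concentration, was 142 in eggs, 261 in metacercariae and 227 in adults. These counts grow with the number of entries listed. As a share of the listed entries, those that made up 50% of the tags were 19.7% in eggs, 18.3% in metacercariae and 19.7% in adults, and the inverse Simpson number was 0.285 per listed entry in eggs, 0.375 in metacercariae and 0.376 in adults. Metacercariae were thus not the most even by these shares, and all of these measures leave out entries under 10 tags.

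**Figure D2:**
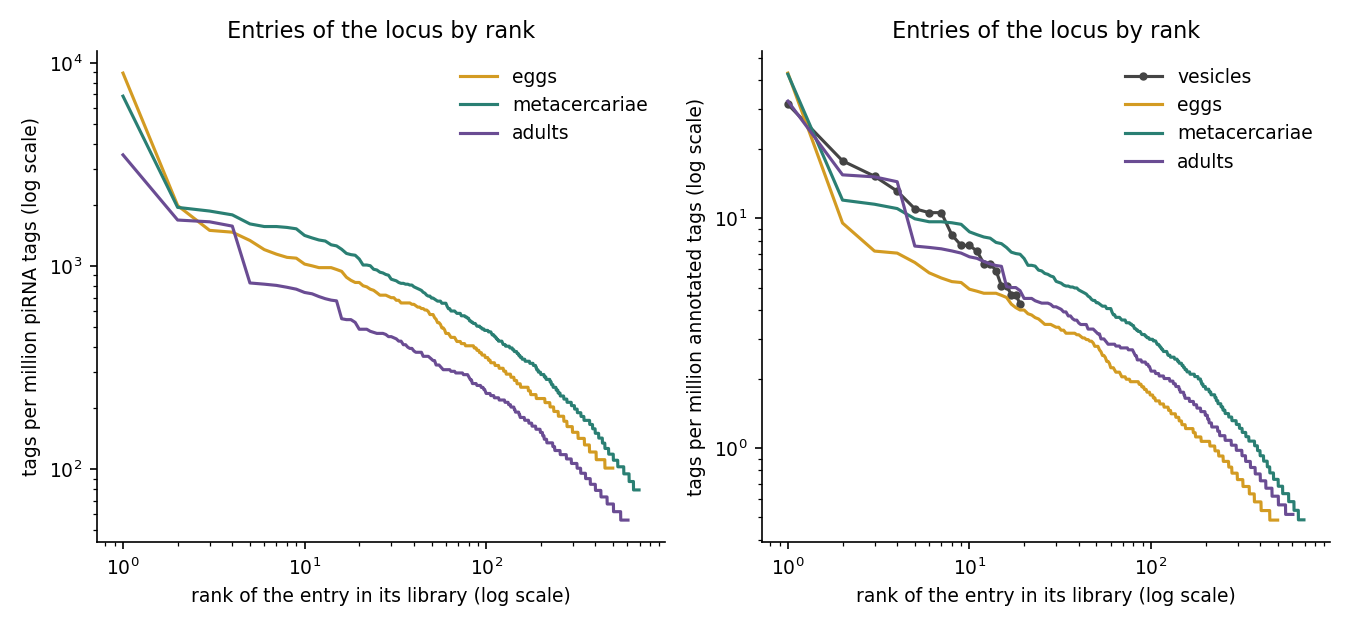
Level of each listed entry of the DF142881.1 locus against its rank within its library, both on log scales. The left panel gives eggs, metacercariae and adults in piRNA RPM, and the right panel adds the 19 vesicle entries and uses annotated RPM. A single entry, novel_pir5480, stands above the rest in each stage, and the metacercaria curve lies above the egg and adult curves over most ranks.

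One entry led the locus in every stage. novel_pir5480 had a tag count of 880 in eggs, 868 in metacercariae and 628 in adults, which was 4.49, 3.53 and 2.09 times the next entry of the locus in the same stages. It was the most abundant of all piRNA entries in eggs and in metacercariae and the fifth in adults. Its level was 8919 piRNA RPM in eggs (8340 to 9529), 6868 in metacercariae (6419 to 7340) and 3530 in adults (3260 to 3818). In annotated RPM it was 42.8 in eggs (40.1 to 45.8), 42.4 in metacercariae (39.6 to 45.3) and 32.4 in adults (29.9 to 35.0). This entry was thus at its lowest in adults, and its egg and metacercaria levels in annotated RPM lay within each other's intervals while the whole locus was 1.80 times higher in metacercariae.

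Below the leader the stages had different entries on top. novel_pir5216 was second in eggs with 196 tags and held 88 tags in metacercariae and 280 in adults. novel_pir5421 was second in metacercariae with 246 tags and in adults with 300, against 38 in eggs. novel_pir5422, the next number in the authors' list, had 11 tags in the egg library, 236 in metacercariae and 94 in adults. Thus neighbouring ranks of 1 stage can be far apart in another. novel_pir5253 and novel_pir5323 completed the top 5 of metacercariae with 226 and 204 tags, against 55 and 43 in eggs and 24 and 70 in adults. novel_pir5500 and novel_pir5228 belonged to the top 5 of adults with 294 and 147 tags, and had 119 and 36 in eggs and 137 and 98 in metacercariae. novel_pir5170, novel_pir5085 and novel_pir5083 belonged to the top 5 of eggs with 148, 145 and 132 tags, and had 93, 26 and 128 in metacercariae and 132, 143 and 98 in adults. Apart from novel_pir5480, novel_pir5421 and novel_pir5216, each of these entries was in the top 5 of a single stage.

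**Figure D3:**
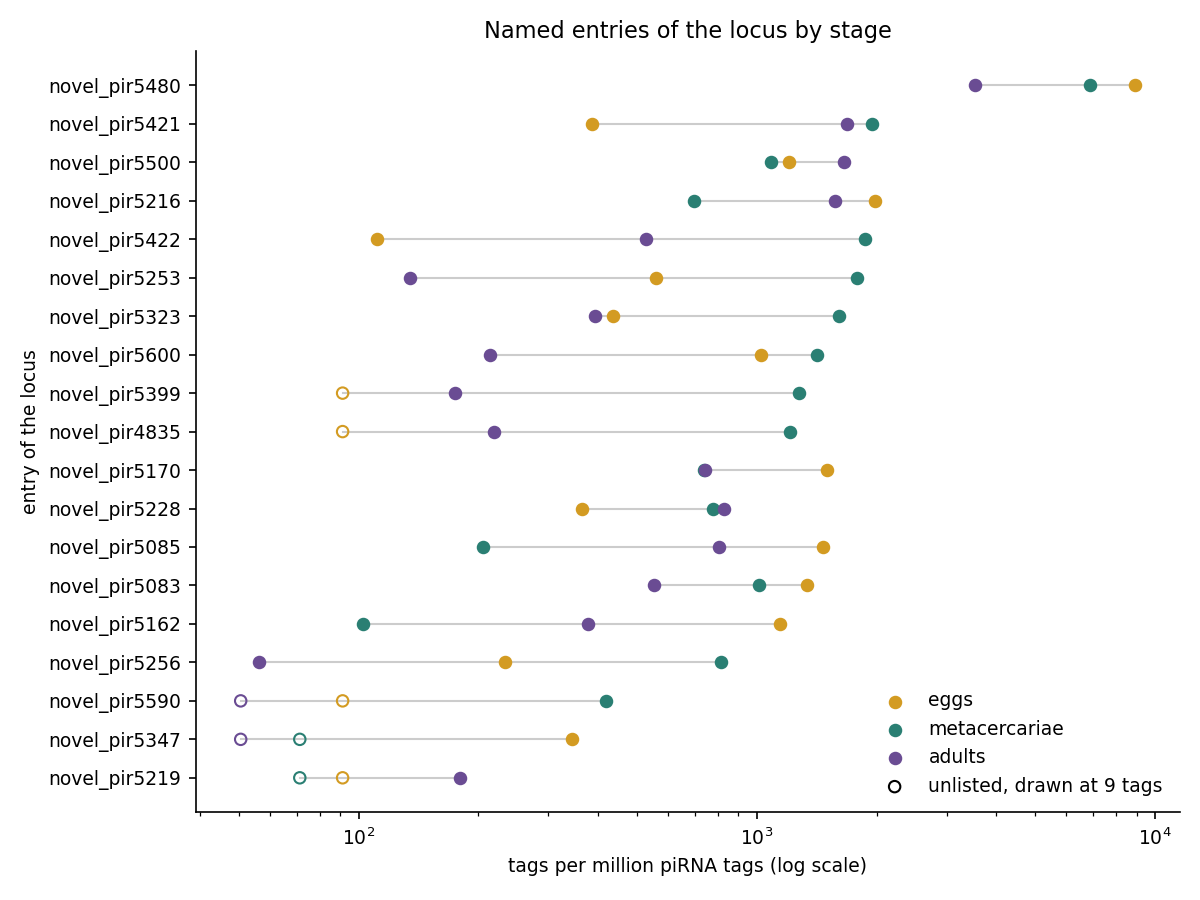
Level in piRNA RPM (log scale) of the 19 entries of the locus named by a fixed rule on abundance and fold, in eggs, metacercariae and adults, 1 library each. Filled circles are listed values and open circles mark unlisted entries drawn at 9 tags. novel_pir5480 lies apart from the others in each stage, and the entries between 100 and 300 tags include ones that are highest in eggs (novel_pir5085), in metacercariae (novel_pir5253) and in adults (novel_pir5500).

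The stages shared 319 entries of the locus, 34.0% of the 937. Of the locus tags they carried 79.4% in eggs, 69.5% in metacercariae and 72.9% in adults. A further 202 entries were listed in metacercariae alone, 107 in adults alone and 87 in eggs alone, and 130 were listed in metacercariae and adults, 48 in eggs and adults and 44 in eggs and metacercariae. Entries listed in a single stage were of low abundance. The most abundant of them were novel_pir5590 with 53 tags in metacercariae, novel_pir5347 with 34 in eggs and novel_pir5219 with 32 in adults. Since an unlisted entry may hold 9 tags, the ratio of novel_pir5219 to eggs was at least 1.97 with a counting interval down to 0.920. Among the 4990 other piRNA entries 1751 were shared by all stages (35.1%), close to the share in the locus. Metacercariae alone listed 21.6% of the locus entries and 11.1% of the others, eggs alone 9.28% and 6.79%, and adults alone 11.4% and 20.4%. Entries of metacercariae and adults were 13.9% of the locus and 14.5% of the others. Those of eggs and adults were 5.12% and 9.48%, and those of eggs and metacercariae 4.70% and 2.57%.

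Of the 319 shared entries 105 were highest in eggs, 188 in metacercariae and 26 in adults in piRNA RPM, that is 32.9%, 58.9% and 8.15%. In annotated RPM the split was 53, 184 and 82. The share highest in metacercariae was thus 58.9% on one scale and 57.7% on the other. Among the 1751 shared entries of all other loci it was 29.4% and 21.5%. It was 17.9% and 11.5% among the 262 of DF143974.1, and 27.4% and 16% among the 175 of DF143043.1. The excess of metacercariae was therefore seen across many entries of the locus as well as in its sum, although entries of 1 locus share a source and a library and are not replicates.

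**Figure D4:**
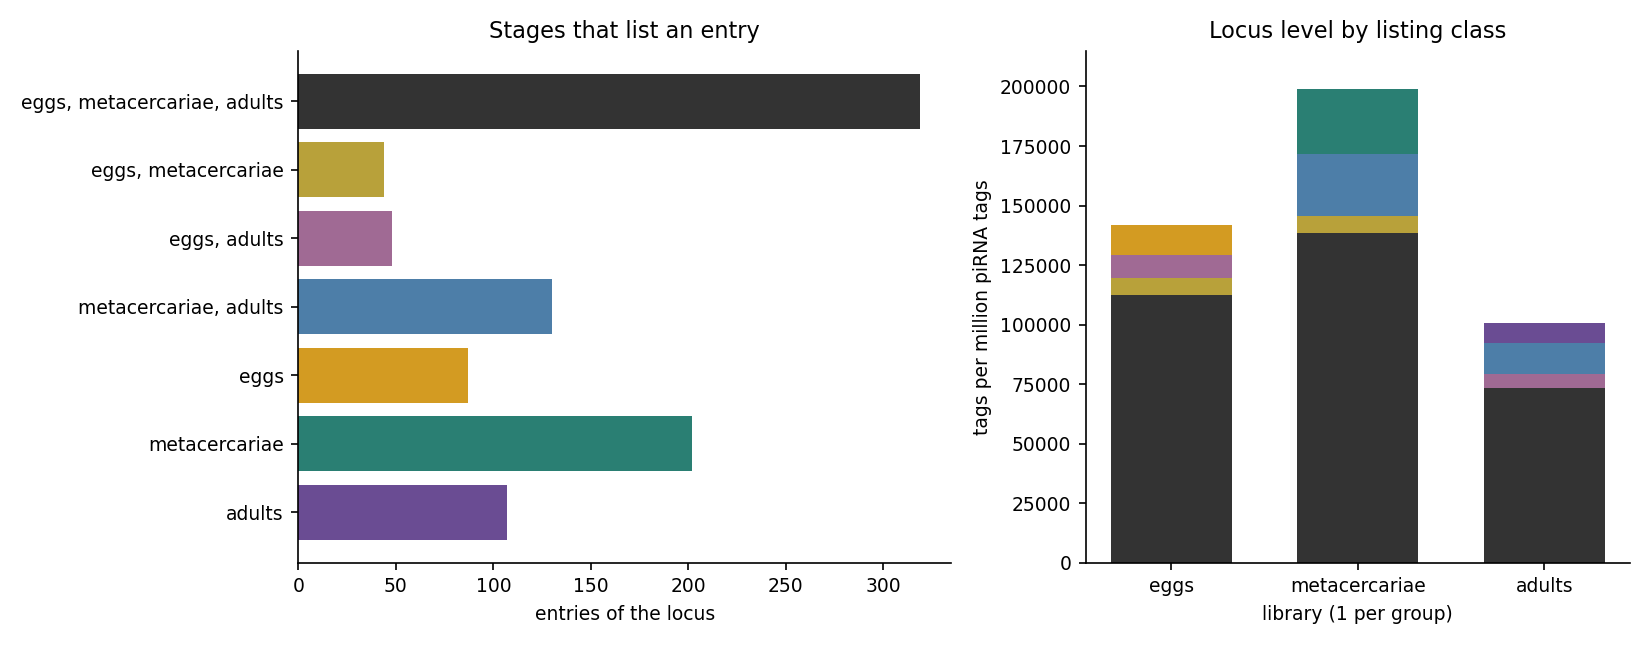
Entries of the locus by the stages that list them (left) and the locus level in each stage, in piRNA RPM, built up from the same classes in the same colours (right), with 1 library per stage. The 319 entries listed in all stages make the dark base of each bar, and the 202 entries listed in metacercariae alone add the top segment of the metacercaria bar.

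For single entries a size rule was used in place of a test. To count as higher or lower, an entry had to differ by at least 4-fold with 1 piRNA RPM added to each level, to reach 10 tags in its higher stage, and to have a 95% interval of the ratio wholly past 2-fold. Unlisted entries were set to 9 tags. Ratios below are in piRNA RPM without the pseudocount. In annotated RPM each would be 1.28 times as large for metacercariae over eggs, 1.49 times for adults over metacercariae and 1.91 times for adults over eggs.

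Between metacercariae and eggs, 28 of 830 members counted as higher and 15 as lower in metacercariae. These were 3.37% and 1.81% of the members, where 1.71% and 2.46% of the 4800 piRNA entries tested were higher and lower. The median log2 fold was 0.17 over the members and -0.07 over all entries, with unlisted entries at 9 tags. Over entries listed in both stages it was 0.27 for members and -0.13 for all. Of the 363 members listed in both stages 219 had a ratio above 1 (60.3%), against 43.9% of all entries listed in both. Among members with at least 100 tags in the higher stage, the largest folds were in novel_pir5422, with 236 tags in metacercariae and 11 in eggs (16.7-fold higher, 9.19 to 34.0), and in novel_pir5399 and novel_pir4835, with 161 and 153 tags in metacercariae and none listed in eggs (at least 14.0-fold and 13.3-fold higher). novel_pir5421 was 5.05-fold higher (3.58 to 7.31). The locus also held entries that went the other way. novel_pir5162 had 13 tags in metacercariae and 113 in eggs (ratio 0.0898, 0.0464 to 0.160), and novel_pir5085 had 26 and 145 (ratio 0.140, 0.0885 to 0.214). Of the 28 higher entries 12 were unlisted in eggs, and of the 15 lower entries 6 were unlisted in metacercariae, so that these calls rest on the listing minimum.

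Between adults and metacercariae the members moved mostly one way. Of 850 members 2 counted as higher in adults and 76 as lower, or 0.235% and 8.94%, where 1.42% and 3.04% of 5501 piRNA entries were higher and lower. The median log2 fold was -0.86 over the members and -0.20 over all entries, and -0.93 and -0.23 over those listed in both stages. Of 449 members listed in both stages 72 had a ratio above 1 (16.0%), against 40.7% of all entries listed in both. Those counted as lower were led by novel_pir5256 with 10 tags in adults and 103 in metacercariae (ratio 0.0690, 0.0321 to 0.132), novel_pir5253 with 24 and 226 (0.0755, 0.0474 to 0.115) and novel_pir5399 with 31 and 161 (0.137, 0.0900 to 0.202). The 2 entries counted as higher, novel_pir5227 and novel_pir5536, were named after their values were seen. Each held 53 tags in adults and was unlisted in metacercariae, a ratio of at least 4.18. Of the 76 lower entries 29 were unlisted in adults and likewise rest on the listing minimum.

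Adults over eggs gave 3 of 735 members higher and 36 lower, or 0.408% and 4.90%, where 0.754% and 2.38% of 5171 piRNA entries were higher and lower. The median log2 fold was -0.58 over the members and -0.32 over all entries, and -0.66 and -0.31 over those listed in both stages. Of the 367 members listed in both stages 78 had a ratio above 1 (21.3%, against 36.7% of all entries listed in both). Higher in adults were novel_pir5422 with 94 tags in adults and 11 in eggs (4.74-fold, 2.53 to 9.82), novel_pir5421 with 300 and 38 (4.38-fold, 3.12 to 6.31) and, named after its values were seen, novel_pir5567 with 76 and 10 (4.22-fold, 2.17 to 9.14). Lower in adults was novel_pir5600 with 38 tags in adults and 101 in eggs (ratio 0.209, 0.140 to 0.306), the one lower entry with at least 100 tags in eggs. Of the 36 lower entries 13 were unlisted in adults.

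The size rule gave other counts in annotated RPM. With 1 annotated RPM added, 8 members counted as higher and 0 as lower for metacercariae over eggs, where 0.271% and 0.146% of all piRNA entries did. For adults over metacercariae they were 0 and 1, beside 0.473% and 0.0364% of all entries, and for adults over eggs 1 and 0, beside 0.541% and 0.0387%. A pseudocount of 1 annotated RPM is near the level of the median entry, so that few folds reached 4. With no pseudocount, a setting chosen after the data were seen, 54 members (6.51%) were higher and 8 (0.964%) lower for metacercariae over eggs, where 3.52% and 1.19% of all entries were. For adults over metacercariae 10 members (1.18%) were higher and 28 (3.29%) lower, where 4.64% and 0.927% of all entries were. For adults over eggs 21 members (2.86%) were higher and 4 (0.544%) lower, where 6.52% and 0.232% of all entries were. Between adults and eggs the balance of higher and lower members thus turned with the scale. In that pair members were higher less often than all entries and lower more often on the annotated scale with no pseudocount, as in piRNA RPM.

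**Figure D5:**
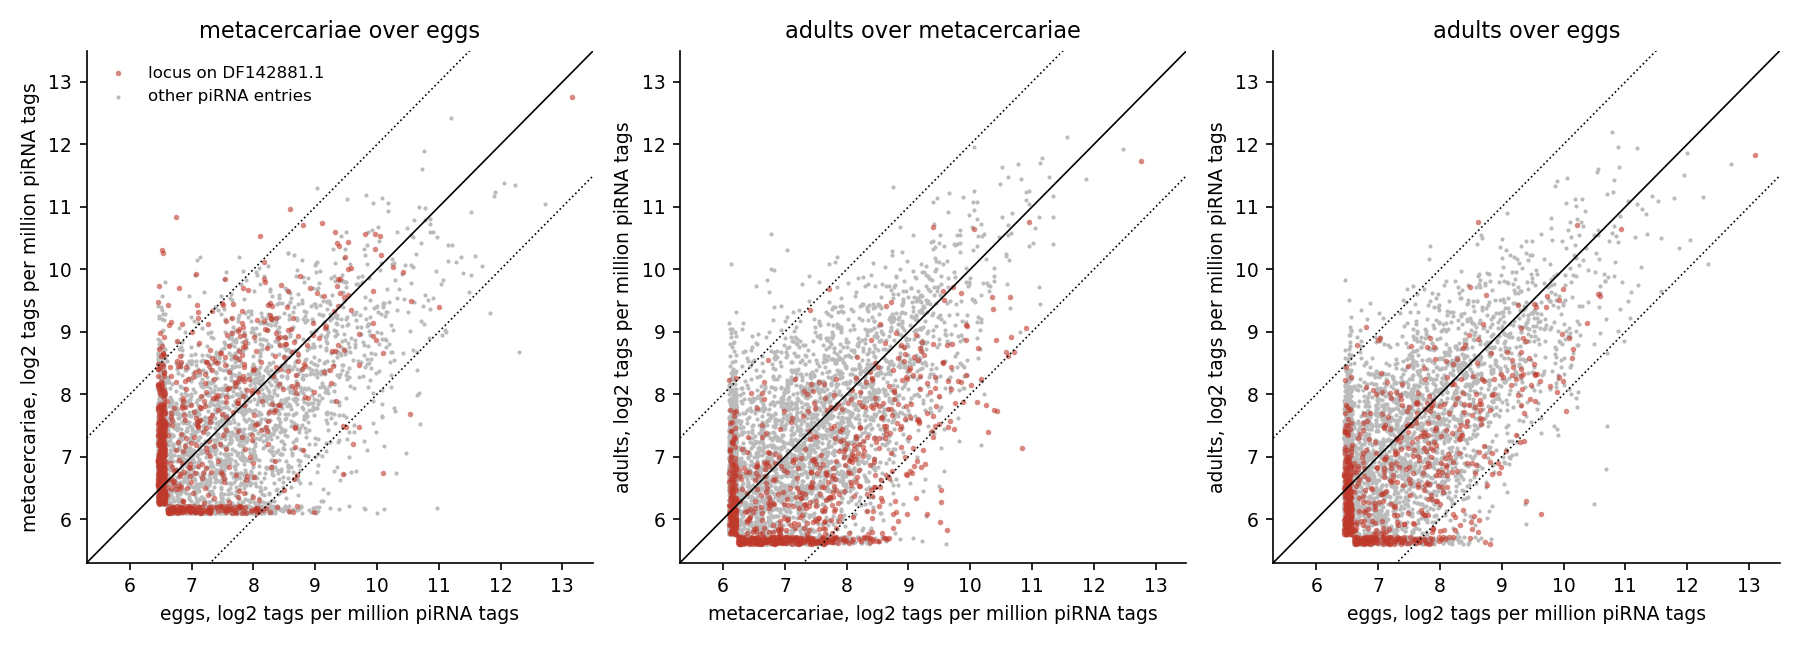
Log2 piRNA RPM of each piRNA entry in a pair of stages, with the later stage of the life cycle on the vertical axis, 1 library each. Entries of the DF142881.1 locus are red, all other piRNA entries are grey, unlisted entries are drawn at 9 tags, points are shifted slightly at random for visibility, and the lines mark equal levels (solid) and 4-fold differences (dotted). In the middle panel most red points lie below the line of equal levels, as in 84.0% of the members listed in both stages.

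The entries kept part of their order of abundance between stages. Over members listed in both stages Spearman's rho was 0.479 for metacercariae and eggs (363 entries), 0.568 for adults and metacercariae (449) and 0.508 for adults and eggs (367). These values describe entries that share a locus and a library and that were all above the listing minimum. The authors numbered the piRNAs jointly over the stages, and the locus takes an unbroken run from novel_pir4694 to novel_pir5630. What orders the numbers within the locus is not given in the sources used here. The log2 level of an entry and that of the next number had a Pearson's r of 0.238 in eggs, 0.0767 in metacercariae and 0.177 in adults, with unlisted entries at 9 tags.

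In the vesicles secreted by adults the locus had 19 entries and 432 tags. It made up 7.23% of the piRNA tags in vesicles (6.58 to 7.91) and 10.1% in adults, a ratio of 0.718 (0.651 to 0.790). In annotated RPM it held 183 in vesicles (166 to 201) and 923 in adults, a ratio of 0.198 (0.180 to 0.218), while all piRNA tags together had a ratio of 0.276. The locus thus ranked 4 among the 54 loci listed in vesicles and 2 among the 161 in adults. DF143974.1 was first in both, at 17.1% of piRNA tags in vesicles and 12.9% in adults.

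The listing minimum weighs more heavily on the shallower vesicle library. The vesicle ratios above, that of all piRNA tags included, count listed entries alone and therefore depend on depth. In the vesicle library 10 tags are 4.24 annotated RPM. In adults 27 entries of the locus were at or above that level. The entries past it summed to 183 annotated RPM in vesicles and 208 in adults. In piRNA RPM the same 10 tags are 1673, a level reached by 19 entries with a sum of 72277 in vesicles and by 2 entries with a sum of 5217 in adults. These sums cover entries selected separately in each library, and their order turned with the scale, so they give no fold between vesicles and adults.

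The vesicle table numbers its piRNAs anew, and with no sequences its entries could not be matched to those of the stages, so a shared number does not mark a shared RNA. The leading vesicle entry, numbered novel_pir183 there, held 74 tags or 31.3 annotated RPM (24.6 to 39.3), where the adult leader novel_pir5480 held 32.4. novel_pir194, novel_pir196, novel_pir182 and novel_pir197 of the vesicle table followed with 42, 36, 31 and 26 tags, and the remaining 14 entries held 10 to 25. The 10 most abundant carried 72.9% of the locus tags in vesicles (68.5 to 77.1), 13.1% in adults and 58.2% among the 27 adult entries at or above 4.24 annotated RPM (56.7 to 59.7). In the authors' count of mapped tags per scaffold, DF142881.1 received 2916 vesicle tags of all classes. Whether those include tags that also map elsewhere is not given in the sources used here.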

How the data were processed

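Small RNA was measured in 4 libraries, 1 each of eggs, metacercariae, adults and vesicles. Libraries followed the standard Illumina procedure from Trizol-extracted total RNA, per the labels' protocols. For each small RNA entry the authors deposited a raw tag count, and the counts sum to the library total in the column header. Their column headed TPM equals the deposited count divided by that total, times 1000000, which is RPM with no length correction. For vesicles the authors also deposited counts of mapped tags per scaffold. Not given in the sources used here are the aligner, the piRNA caller, the repeat annotation and the genome build. 1 deposited count column of another species was not used.

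The members, lists and size rule were chosen with earlier results of these data known. Levels carry exact Poisson intervals, shares Clopper-Pearson intervals and ratios exact conditional binomial intervals at 95% (SciPy 1.17.1, Python 3.11.15). TMM factors (edgeR 4.0.16, R 4.3.3) and median-of-ratios size factors used the 2070 piRNA entries listed in every stage. Named entries were the 5 most abundant per stage, the 3 largest folds each way per pair with at least 100 tags in the higher stage, the most abundant entry listed in a single stage, and the 5 most abundant in vesicles. No paired analysis was possible because each group was 1 library.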

Additional observations from a re-analysis of the deposited data

How the results depend on the processing

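The locus level and its ratios have 1 library behind each value, and depth limits most entries to under 20 tags in eggs and adults. Without its most abundant entry the locus held 133000 piRNA RPM in eggs, 192213 in metacercariae and 97117 in adults. In annotated RPM the whole locus, with that entry included, held 682, 1228 and 923 in the same stages and 183 in vesicles. The 10 most abundant of the 319 shared entries carried 18.5% in eggs, 15.7% in metacercariae and 18.0% in adults of the tags of those entries. Entries listed in adults numbered 316 at or above the listing minimum of eggs, with no such count made over all piRNA entries.

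The metacercaria over egg ratio of the locus was 1.80 in annotated RPM, 1.53 under median-of-ratios size factors, 1.52 under TMM, 1.50 against piRNA tags outside the locus (a scale added after the data were seen), 1.45 without the leading entry and 1.23 over the shared entries. For adults over metacercariae the same settings gave 0.751, 0.551, 0.545, 0.450, 0.505 and 0.530. For adults over eggs they gave 1.35, 0.844, 0.828, 0.677, 0.730 and 0.651, and the first of these turned the direction.

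Counts of members past the size rule fell in annotated RPM with a pseudocount of 1 RPM. They were 8 higher and 0 lower for metacercariae over eggs (all piRNA entries, 0.271% and 0.146%). For adults over metacercariae they were 0 and 1 (0.473% and 0.0364%), and for adults over eggs 1 and 0 (0.541% and 0.0387%). With no pseudocount on that scale, an alternative added after the data were seen, they were 54 and 8, 10 and 28, and 21 and 4 in the same pairs (all piRNA entries, 3.52% and 1.19%, 4.64% and 0.927%, and 6.52% and 0.232%). With at least 100 tags in the higher library they were 10 and 2, 0 and 12, and 1 and 1 (all piRNA entries, 0.417% and 0.5%, 0.436% and 0.327%, and 0.309% and 0.232%). Median-of-ratios size factors gave 4 higher for adults over metacercariae (all piRNA entries, 1.73%), and 6 higher and 16 lower for adults over eggs (1.37% and 1.3%). TMM gave 4, 6 and 18 in the same places (1.64%, 1.2% and 1.37%). The other 15 alternatives moved a value by less than its counting interval or a count by at most 1.5 times. No paired analysis was possible because each group was 1 library.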
